A study of Mus musculus with 194 samples.

Results

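The lateral hypothalamus (LH) of mice killed after acute or repeated cocaine was profiled in 16 libraries, which were chosen from the 194 libraries of the series by the structure and treatment given in the sample labels. The libraries fall into 4 time points of 4 mice each, 0, 1, 2 and 4 hr, and every time point holds 2 mice of the acute and 2 of the repeated treatment. All mice were C57BL/6OLAHSD males, 6 to 7 weeks old on arrival, that had received saline for 3 days before any drug. Cocaine was given intraperitoneally at 20 mg/kg, once in the acute group and on 5 consecutive days in the repeated group, which the labels call Chronic. The 0 hr mice were taken from the home cage without an injection on that day, so that the acute 0 hr mice were drug naive and the repeated 0 hr mice were 24 hr past the fourth dose. Because no group received saline on the day of collection, the response to cocaine and the response to handling and injection cannot be told apart. The acute and the repeated mice also belonged to different cohorts, and treatment and cohort cannot be told apart either. All 16 libraries came from 1 sequencing run. Each time point was set against 0 hr with treatment as a covariate, a comparison that asks which LH genes change after cocaine and when.

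The LH holds neurons that make orexin, also called hypocretin, and neurons that make melanin-concentrating hormone, and it is known for its part in arousal, feeding and reward seeking. Neuronal activity induces immediate-early genes, transcription factors and signalling proteins whose mRNAs appear within minutes to hours and do not need new protein synthesis. Glucocorticoids released by stress or by stimulant drugs act on a second set of genes through the glucocorticoid receptor, a ligand-activated transcription factor. Lists of both kinds of genes, of clock, chaperone, neuropeptide, receptor and hypoxia genes, and of markers of other cell types were examined.

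Library totals ran from 2400009 to 4731726 counts, with a median of 3533100. Hcrt, the orexin precursor, was at 4176 to 7640 CPM (counts scaled to one common library total) in the LH libraries, against 273.6 to 466.9 CPM in the amygdala (Amy) and 0 to 0.409 CPM in the dorsal striatum (DS). Pmch, the precursor of melanin-concentrating hormone, was at 4323 to 8708 CPM in LH, 505.4 to 849.3 CPM in Amy and no more than 2.87 CPM in DS. The labelled structure was therefore matched by its defining neuropeptides, although every Amy library, from the same run, held both at a lower level. The source of these reads in Amy, and its part in the comparison of LH with Amy, was not tested. In the 13 marker lists, no gene passed the test against 0 hr at any time point with both treatments together, while Acta2, Tagln and Ly6c1 of the endothelial and mural list passed in comparisons over or between time points, and Ptgds (meningeal), Ttr (choroid plexus) and Hcrt passed within single treatments or between them, as given with those genes. The tissue is a bulk dissection, in which fewer cells of a type and less RNA per cell cannot be told apart. Libraries that stood apart in single genes included repeated mouse 2 at 0 hr (Oxt, Junb and Nfkbia), acute mouse 1 at 1 hr (Oxt and Avp), acute mouse 2 at 1 hr (Ptgds) and repeated mouse 1 at 2 hr (Acta2 and Tagln), and values that rest on these mice are given beside the results.

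At 1 hr, 9 of 12813 genes tested were higher than at 0 hr and none was lower, which is 0.0702% of the genes (edgeR's quasi-likelihood test, Benjamini-Hochberg adjusted p under 0.05 and a fold change over 1.2, 4 mice against 4). Genes that met both thresholds are termed called. Of the 9, 4 encode immediate-early transcription factors (Fos, Junb, Egr1 and Nr4a1), 3 are glucocorticoid-responsive genes (Sgk1, Nfkbia and Ddit4) and 2 are in neither list (Plekhf1 and Fgfr2). At 2 hr no gene was called (0% of genes). By unadjusted p under 0.05, 744 genes differed at 2 hr, and DESeq2 called none. At 4 hr a single gene was called, Sgk1 (0.0078% of genes). A test of any change over the 4 time points called 12 genes (0.0937%), which added Tagln, Acta2, Plin4 and Tsc22d3 and lacked Fgfr2. With 1 mouse left out, its calls of Nfkbia and Tsc22d3 remained in 6 and 11 of 16 fits, and the others in at least 13. In 7 of the 9 genes, all 4 mice at 1 hr were above all 4 mice at 0 hr, which was the case for 1.25% of all genes tested, and in Nr4a1 and Egr1 the groups overlapped. Without acute 0 hr mouse 2, repeated 0 hr mouse 2 or repeated 1 hr mouse 1 the count of called genes at 1 hr was 5, 4 and 5. DESeq2 called 3 of the 9, Fos, Junb and Plekhf1. The SEs and p-values measure the spread between mice of these cohorts.

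**Figure D1:**
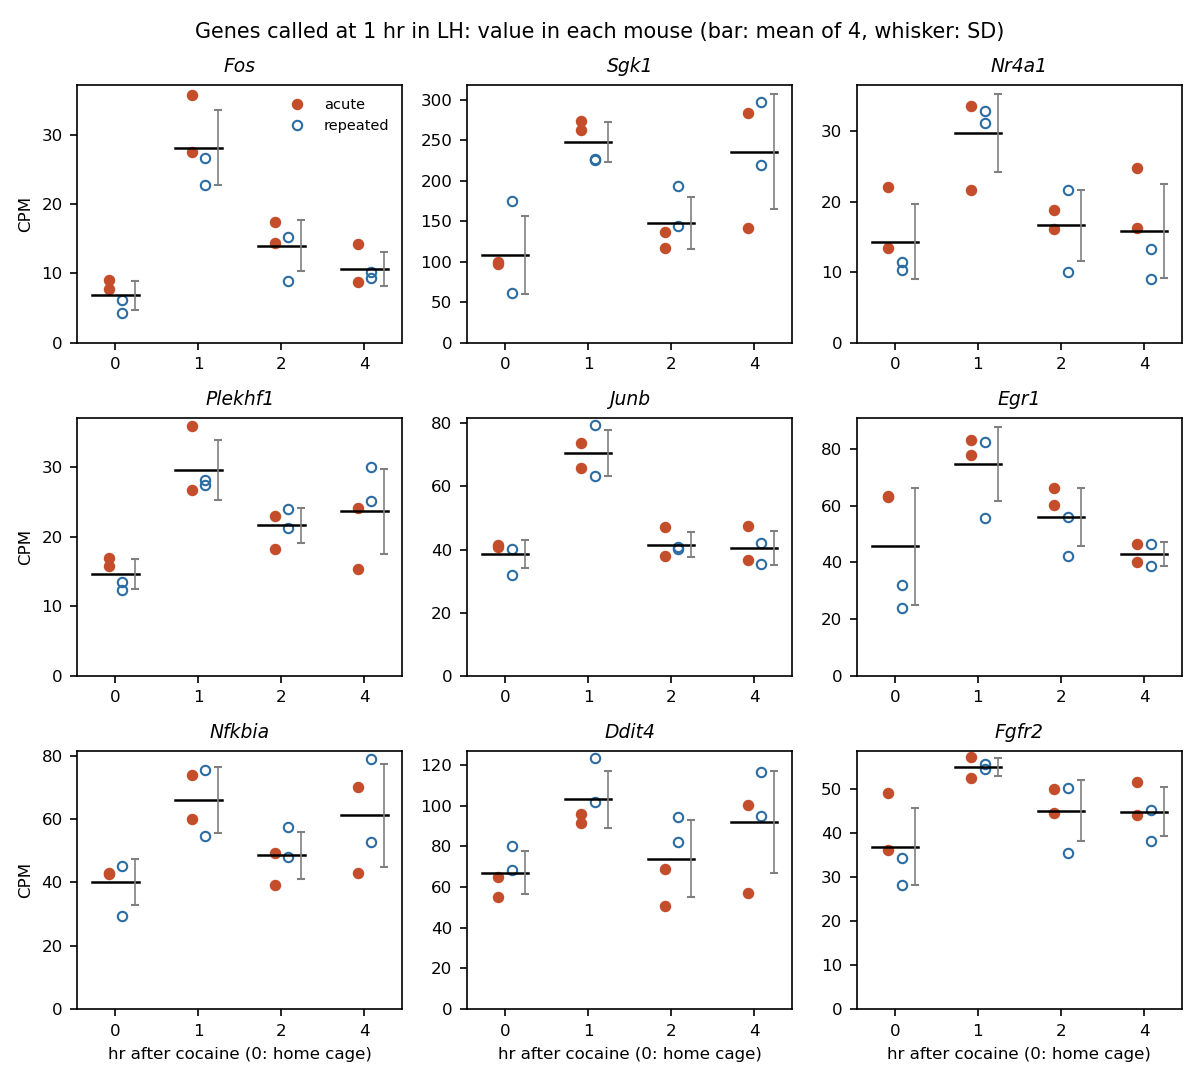
Expression of the 9 genes called at 1 hr in each of the 16 LH mice, in CPM scaled by TMM (vertical axis), by hr after cocaine (horizontal axis). Filled circles are acute mice, open circles repeated mice, bars the mean of 4 mice and whiskers the SD, and the 1 hr mice are above the 0 hr mice without overlap in 7 of the 9 panels.

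Promoter sequence is shown for 4 called genes whose windows hold one of 2 elements that activity-dependent and glucocorticoid-dependent transcription factors bind, to place these elements beside the values. Plekhf1, which had a larger change than Junb, held neither and is not shown. Windows of 250 bases before a RefSeq start (GRCm38.p6) were at hand for 8 of the 9 called genes, in 13 windows. Capitals mark the half-site of the cAMP response element (CRE), TGACG, or its reverse complement in Fos (chr12:85473640-85473889, plus strand), Junb (chr8:84978749-84978998, minus strand) and Nr4a1 (chr15:101266596-101266845, plus strand, inside the annotated gene). In Sgk1 (chr10:21993640-21993889, plus strand, also inside the annotated gene) they mark a match to the glucocorticoid response element (GRE), GNACANNNTGTNC.
Fos: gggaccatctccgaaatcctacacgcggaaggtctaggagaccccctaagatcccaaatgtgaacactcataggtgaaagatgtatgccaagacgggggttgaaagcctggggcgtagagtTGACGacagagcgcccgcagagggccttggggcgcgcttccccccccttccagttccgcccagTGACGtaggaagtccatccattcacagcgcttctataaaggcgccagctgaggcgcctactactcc
Junb: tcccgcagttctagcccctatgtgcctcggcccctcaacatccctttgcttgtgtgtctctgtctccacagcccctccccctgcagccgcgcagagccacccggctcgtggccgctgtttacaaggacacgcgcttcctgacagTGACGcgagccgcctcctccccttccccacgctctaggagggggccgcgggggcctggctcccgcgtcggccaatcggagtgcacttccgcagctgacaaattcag
Nr4a1: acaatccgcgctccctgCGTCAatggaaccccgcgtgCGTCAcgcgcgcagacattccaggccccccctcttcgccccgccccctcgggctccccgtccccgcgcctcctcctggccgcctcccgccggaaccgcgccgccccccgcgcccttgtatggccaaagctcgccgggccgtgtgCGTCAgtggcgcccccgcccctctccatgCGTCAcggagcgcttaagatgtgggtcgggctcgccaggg
Sgk1: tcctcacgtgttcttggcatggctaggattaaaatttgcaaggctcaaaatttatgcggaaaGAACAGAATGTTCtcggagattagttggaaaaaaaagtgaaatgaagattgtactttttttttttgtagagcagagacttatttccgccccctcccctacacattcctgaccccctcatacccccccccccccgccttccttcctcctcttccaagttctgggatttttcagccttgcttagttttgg

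The half-site was present 2 times in the Fos window, 1 time in that of Junb and 4 times in that of Nr4a1, and it was also in 1 of the 6 Sgk1 windows. That is 4 of the 13 windows (30.8%), against 17.8% of 32851 mouse windows of the same length. It was added to the search after the data were seen. None of the 8 genes held the full CRE palindrome TGACGTCA, which contains the half-site and was present in 1.55% of all windows. The GRE was present in 1 of the 13 windows (7.69%), 1 of the 6 of Sgk1, against 0.387% of all windows. An E-box (CACGTG, 6.02% of all windows) was present in the same Sgk1 window only. A site of the EGR family (GCGTGGGCG or GCGGGGGCG, 3.06% of all windows) was present in 2 of the 13 windows (15.4%), those of Nr4a1 and Plekhf1, and the CArG box, bound by serum response factor, in none of the 8 genes (1.47% of all windows). Both strands were searched. These matches describe letters in a short window and say nothing about binding.

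Fos (chr12:85473890-85477273, GRCm38), which encodes a subunit of the AP-1 transcription factor and is the standard marker of recently active neurons, had the largest change. At 0 hr it was at 9.09 and 7.79 CPM in the acute mice and at 6.10 and 4.24 CPM in the repeated mice, where CPM from here on are scaled by TMM. At 1 hr it was at 35.7, 27.4, 26.7 and 22.8 CPM, in the same order. Every mouse at 1 hr was above every mouse at 0 hr. The log2 fold change (log2FC) was 2.02 (SE 0.20), a 4.05-fold rise, with an adjusted p of 1.62e-08. The underlying counts were low, 10 to 38 reads per library at 0 hr and 94 to 131 at 1 hr. Fos was still at 17.4, 14.5, 15.3 and 8.84 CPM at 2 hr, with a log2FC of 1.01 (SE 0.22) that did not pass the test (adjusted p = 0.146). At 4 hr its log2FC was 0.62 (adjusted p = 0.933).

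Junb (chr8:84974484-84978718), whose product pairs with Fos in AP-1, was called at 1 hr and at no other time. It was at 41.4 and 40.7 CPM in the acute and 40.1 and 31.8 CPM in the repeated 0 hr mice. At 1 hr the values were 65.9, 73.9, 79.3 and 63.4 CPM, a log2FC of 0.87 (SE 0.11, adjusted p = 4.68e-06). The means fell from 70.6 ± 7.34 CPM (SD, n = 4) at 1 hr to 41.5 ± 3.93 CPM at 2 hr and 40.4 ± 5.45 CPM at 4 hr, beside 38.5 ± 4.51 CPM at 0 hr. At 2 and 4 hr the mice overlapped those at 0 hr.

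Egr1, a zinc finger transcription factor of the immediate-early class, was at 63.4 and 63.0 CPM in the acute 0 hr mice but at 24.1 and 32.2 CPM in the repeated ones. At 1 hr it was at 83.4 and 78.0 CPM in the acute and 82.3 and 55.5 CPM in the repeated mice. The 1 hr groups therefore lay close together while the 0 hr groups did not. The common log2FC was 0.72 (SE 0.14, adjusted p = 0.017). Without repeated 0 hr mouse 1, repeated 0 hr mouse 2 or repeated 1 hr mouse 1 the call was lost, with an adjusted p of up to 0.193, and under DESeq2, the robust fit, without the treatment covariate or in acute mice alone it was lost as well.

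Nr4a1 (chr15:101254269-101274795) encodes an orphan nuclear receptor induced by activity. It was at 22.0, 13.5, 10.3 and 11.4 CPM at 0 hr and at 33.5, 21.6, 31.2 and 32.8 CPM at 1 hr. The overlap came from acute mice, since acute mouse 2 at 1 hr was below acute mouse 1 at 0 hr. The log2FC was 1.05 (SE 0.22, adjusted p = 0.0254). The call was lost with 6 of the 16 mice left out singly (acute 0 hr mouse 2, acute 1 hr mouse 1 and all 4 repeated mice at 0 and 1 hr), with an adjusted p of up to 0.193, and under the same 4 alternatives as that of Egr1.

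Of the 25 immediate-early transcription factors tested, 4 were called at 1 hr, all higher, and 6 were higher and none lower by unadjusted p under 0.05, against 2.54% of all genes higher and 2.34% lower. The median log2FC of the 25 was 0.31, against -0.002 over all genes. At 2 hr 2 were higher and 2 lower by unadjusted p (2.65% and 3.15% of all genes), and at 4 hr 1 was higher and 1 lower (2.44% and 2.76% of all genes). After Fos, the smallest unadjusted p of the list was that of Jun at 2 hr (log2FC -0.23, adjusted p = 0.842) and that of Klf4 at 4 hr (log2FC -1.22, adjusted p = 0.946). Of the 37 effectors and feedback regulators induced by activity, none was called against 0 hr at any time in edgeR's test. By unadjusted p, 5 were higher and none lower at 1 hr, 1 higher and 2 lower at 2 hr, and 2 in each direction at 4 hr. Arl4d, a small GTPase of the ARF family, was at 3.54 to 15.1 CPM at 0 hr and 17.2 to 23.1 CPM at 1 hr (log2FC 1.11, SE 0.28, adjusted p = 0.264). Errfi1, a feedback inhibitor of the EGF receptor, had a log2FC of 0.27 (adjusted p = 0.919) at 1 hr.

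Arc, the synaptic regulator that is among the best known activity-induced genes, was detected but did not follow Fos. It was at 45.2, 29.0, 30.5 and 38.6 CPM at 0 hr and at 39.2, 35.3, 41.7 and 36.6 CPM at 1 hr. The ranges overlapped almost completely, and the log2FC was 0.07 (SE 0.13, adjusted p = 0.982). Fosb, Nr4a3 and Fosl2 had log2FC of 0.42, 0.61 and 0.30 at 1 hr with adjusted p-values of 0.958, 0.938 and 0.963.

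Sgk1 (chr10:21882184-21999903), serum- and glucocorticoid-regulated kinase 1, was the one gene called at both 1 and 4 hr with the treatments together. It was at 99.3 and 97.3 CPM in the acute 0 hr mice and at 174.6 and 61.5 CPM in the repeated ones, so that the repeated mice bracketed the acute ones. At 1 hr the 4 values were 274, 262.7, 226.5 and 225.9 CPM, all above 0 hr (log2FC 1.18, SE 0.16, adjusted p = 3.65e-05). At 2 hr they were 136.9, 116.9, 143.9 and 193.2 CPM and overlapped 0 hr (log2FC 0.43, adjusted p = 0.752). The fall from 1 to 2 hr was called (log2FC -0.75, SE 0.16, adjusted p = 0.04996).

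At 4 hr Sgk1 was at 141.6 and 282.9 CPM in the acute and 219.7 and 297 CPM in the repeated mice. The log2FC was 1.10 (SE 0.17, adjusted p = 0.000555), although acute mouse 1 was below repeated mouse 1 of 0 hr. Both calls remained with each of the 16 mice left out in turn, with log2FC of 0.99 to 1.48 at 1 hr and 0.91 to 1.42 at 4 hr. DESeq2 gave adjusted p-values of 0.123 at 1 hr and 0.438 at 4 hr and did not call it at either time. The robust fit lost both calls too (adjusted p = 0.527 and 0.752), and in repeated mice alone both were lost as well (adjusted p = 0.17 and 0.0567).

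Nfkbia (chr12:55489410-55492647) encodes the inhibitor that retains NF-kB in the cytoplasm and is transcribed in response to glucocorticoids. It rose from 42.8, 42.8, 45.3 and 29.3 CPM to 59.9, 73.9, 75.6 and 54.7 CPM at 1 hr (log2FC 0.69, SE 0.14, adjusted p = 0.0254). Ddit4 (chr10:59949669-59951834), an inhibitor of mTORC1 signalling that responds to stress and glucocorticoids, rose from 65.1, 54.9, 80.3 and 68.2 CPM to 91.5, 96.1, 123.3 and 101.9 CPM (log2FC 0.61, SE 0.11, adjusted p = 0.0108). In both genes the groups did not overlap. The Nfkbia call was lost with acute 0 hr mouse 2, acute 1 hr mouse 2, repeated 0 hr mouse 1 or 2 or repeated 1 hr mouse 1 left out, with adjusted p-values of up to 0.266. The Ddit4 call was lost with acute 0 hr mouse 2, acute 1 hr mouse 2, repeated 0 hr mouse 2 or repeated 1 hr mouse 1 left out (up to 0.15), and DESeq2, the robust fit, the fit without the covariate and each treatment alone called neither gene.

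The 34 glucocorticoid-responsive genes tested had few calls. At 1 hr 3 were called higher, and by unadjusted p under 0.05 10 were higher and 5 lower (2.54% and 2.34% of all genes, of which 0.0702% were called), with a median log2FC of -0.01. At 2 hr none was called in edgeR's test, with 3 higher and none lower by unadjusted p (2.65% and 3.15% of all genes) and a median of 0.13. At 4 hr 1 was called (0.0078% of all genes), 11 were higher and none lower by unadjusted p (2.44% and 2.76% of all genes), and 29 of 34 had a log2FC above 0, with a median of 0.21 against -0.001 over all genes. By value at 4 hr, Arrdc2, an arrestin-domain protein, was at 24.95, 38.37, 41.73 and 49.79 CPM against 18.4, 18.4, 27.3 and 22.9 CPM at 0 hr. Its log2FC was 0.83 with an adjusted p of 0.0604, and 0.67 (adjusted p = 0.206) at 1 hr. Nfkbia, Ddit4 and Plekhf1 had log2FC of 0.60, 0.45 and 0.68 at 4 hr, each with an adjusted p of 0.449. Without acute 4 hr mouse 1, the lowest of the 4 in each of these genes, 6 genes were called at 4 hr: Arl4d (1.33), Arrdc2 (0.93), Ddit4 (0.58), Nfkbia (0.74), Plekhf1 (0.85) and Sgk1 (1.28), with log2FC in parentheses. Leaving out the lowest mouse of the higher group favours such calls. Of the 16 fits with 1 mouse left out, Arl4d, Ddit4, Nfkbia and Plekhf1 were called at 4 hr in this 1 only. Arrdc2 was called in 4 of the 16.

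Plin4 (chr17:56100591-56109803), a lipid droplet protein, and Tsc22d3 (chrX:140539528-140600659), the glucocorticoid-induced leucine zipper, had their lowest values at 1 hr. Plin4 was at 10.3, 7.43, 18.6 and 8.90 CPM at 0 hr, at 4.90, 4.38, 5.49 and 7.36 CPM at 1 hr and at 13.2, 21.5, 17.1 and 30.2 CPM at 4 hr. No mouse at 1 hr reached the lowest mouse at 0 hr or 4 hr. Against 0 hr the 1 hr change was not called (log2FC -1.06, adjusted p = 0.438), and neither was the 4 hr change (0.84, adjusted p = 0.745), but 4 hr was called above 1 hr (log2FC 1.90, SE 0.27, adjusted p = 4.57e-05). Tsc22d3 was at 96.7, 127.1, 155.4 and 115.7 CPM at 0 hr, 80.4, 97.5, 100.1 and 110.9 CPM at 1 hr and 108.8, 135.2, 147.7 and 168 CPM at 4 hr. It was called higher at 4 hr than at 1 hr (log2FC 0.53, SE 0.09, adjusted p = 0.00264), and the call was lost without repeated 4 hr mouse 2 (adjusted p = 0.0621). Fkbp5, the co-chaperone of the glucocorticoid receptor, had a log2FC of 0.30 at 4 hr (adjusted p = 0.95).

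**Figure D2:**
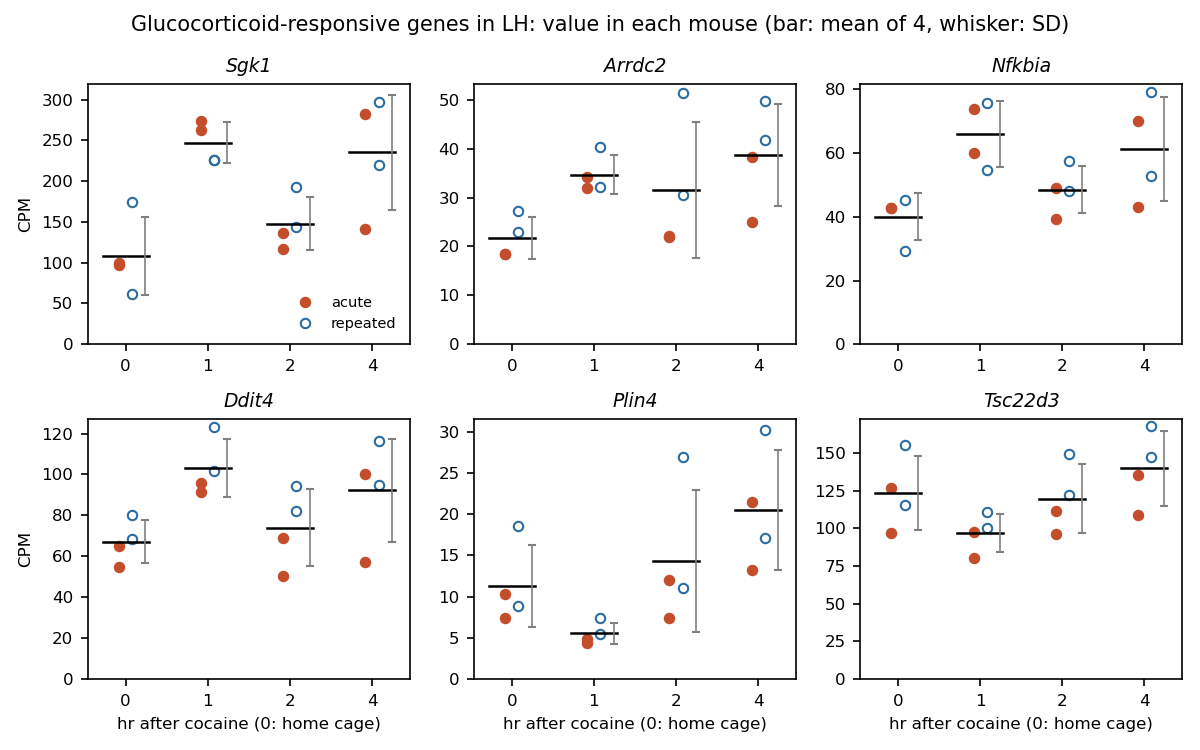
Expression of 6 glucocorticoid-responsive genes in each LH mouse, in CPM scaled by TMM (vertical axis), by hr after cocaine (horizontal axis). Filled circles are acute mice, open circles repeated mice, bars the mean of 4 mice and whiskers the SD. Sgk1, Arrdc2, Nfkbia and Ddit4 have higher means at 1 and 4 hr than at 2 hr, while Plin4 and Tsc22d3 are lowest at 1 hr.

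Among the called genes outside these lists, Plekhf1 (chr7:38216972-38228016), which encodes a phosphoinositide-binding protein of endosomes and lysosomes, was at 15.8, 17.0, 13.5 and 12.3 CPM at 0 hr. At 1 hr it was at 26.7, 35.9, 28.2 and 27.4 CPM, a log2FC of 0.99 (SE 0.17, adjusted p = 0.00226). Acute mouse 2 stood above the other 1 hr mice, and the groups did not overlap. The call remained with each mouse left out (adjusted p = 0.036 and log2FC 0.86 without acute 1 hr mouse 2) and under DESeq2, but not within the acute or the repeated mice alone. Fgfr2, a receptor for fibroblast growth factors, was at 49.0, 36.1, 28.3 and 34.3 CPM at 0 hr and at 52.6, 57.2, 54.6 and 55.8 CPM at 1 hr (log2FC 0.57, SE 0.12, adjusted p = 0.0423). Its call was the most fragile of the 9. It was lost with 8 of the 16 mice left out singly (acute 0 hr mouse 2, acute 1 hr mouse 2, acute 2 hr mouse 2, acute 4 hr mouse 1 and all 4 repeated mice at 0 and 1 hr), with an adjusted p of up to 0.277, and under DESeq2, without the treatment covariate, with the replicate number as a block and within either treatment. The annotated span of Fgfr2 encloses other genes, and how reads in shared stretches were counted is not given in the sources used here.

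**Figure D3:**
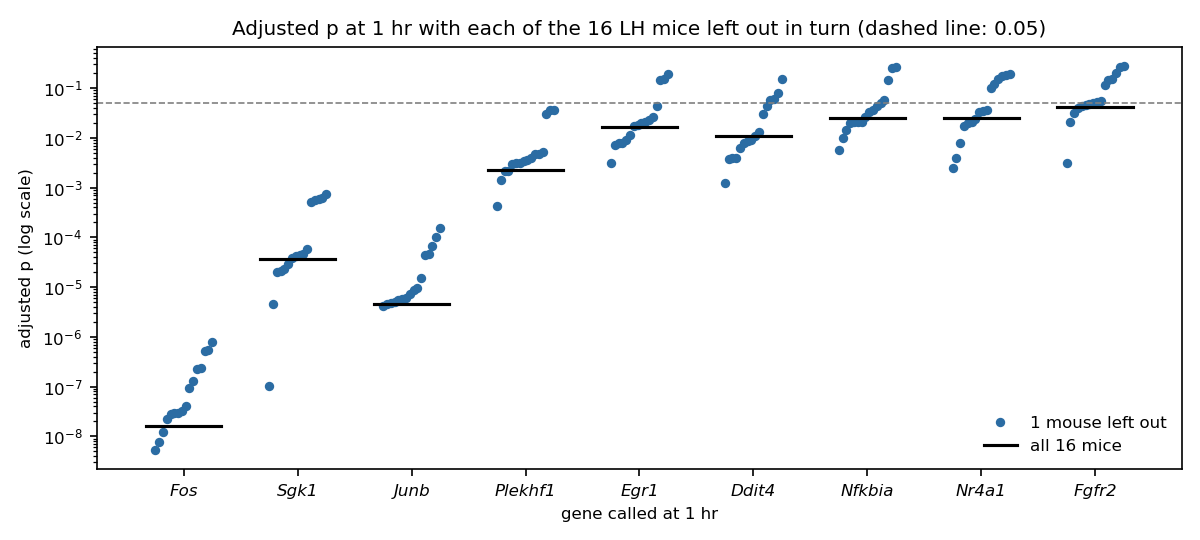
Adjusted p of the 1 hr comparison (vertical axis, log scale) for the 9 called genes (horizontal axis) with each of the 16 LH mice left out in turn (points) and with all 16 mice (bars), where the dashed line is 0.05. Fos, Sgk1, Junb and Plekhf1 stay below the line throughout, and each of the other 5 genes crosses it in 3 to 8 of the 16 fits.

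Direct comparisons between the time points after cocaine used the same fit. From 1 to 2 hr, 5 genes were called (0.039%). Fos (log2FC -1.01, SE 0.17, adjusted p = 0.00432), Junb (-0.77, SE 0.10, adjusted p = 5.18e-05) and Sgk1 were lower, and Plin4 (1.36, adjusted p = 0.0434) and Acta2 were higher. The Fos call was lost without acute 1 hr mouse 1 (adjusted p = 0.102), and those of Plin4 and Sgk1 were lost with 7 and 9 of the 16 mice left out singly (adjusted p of up to 0.545 and 0.352). From 1 to 4 hr, 8 genes were called (0.0624%). Fos (-1.40, SE 0.18), Junb (-0.81, SE 0.11) and Egr1 (-0.79, SE 0.14) were lower, with adjusted p-values of 1.26e-05, 1.26e-05 and 0.00264. Besides Plin4 and Tsc22d3, Ly6c1, an endothelial surface protein, and Mfsd2a, a lipid transporter of the brain endothelium, were higher, with log2FC of 0.47 and 0.45 (adjusted p = 0.00264 and 0.0188). The Egr1 call was lost without acute 4 hr mouse 1 or repeated 1 hr mouse 1 (adjusted p of up to 0.0641), and that of Mfsd2a with 5 mice left out singly, both acute mice and repeated mouse 2 at 4 hr and both repeated mice at 1 hr (up to 0.237). Dmkn was called lower but rested on 3 reads at 4 hr against 44 at 1 hr, a ratio of 0.0747 with a 95% exact counting interval of 0.0148 to 0.233. From 2 to 4 hr Acta2 alone was called (0.0078%).

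Acta2 (chr19:34241090-34255590) and Tagln (chr9:45929619-45936058), contractile proteins of vascular smooth muscle, rested on single mice. At 2 hr Acta2 was at 37.4 and 8.03 CPM in the acute and 77.2 and 8.84 CPM in the repeated mice, and at 8.48 to 12.2 CPM at 0 hr. Tagln was at 30.6, 14.2, 100.4 and 12.01 CPM at 2 hr and 8.85 to 17.7 CPM at 0 hr. In both genes the same mouse of each treatment was high, and repeated mouse 1 alone held 58.7% of the summed CPM of Acta2 at 2 hr and 63.9% of that of Tagln. Myh11, smooth muscle myosin, was at 17.8 CPM in that mouse and at 2.68 to 4.71 CPM in the other 2 hr mice. Against 0 hr Acta2 and Tagln were not called (log2FC 1.497 and 1.509, adjusted p = 0.414 and 0.19), nor was Myh11 (1.42, adjusted p = 0.6). Without this mouse the log2FC of Acta2, Tagln and Myh11 were 0.68, 0.60 and 0.55. In the test of any change over time Acta2 and Tagln were called (adjusted p = 0.00364 and 0.00926), and both calls were lost without acute 2 hr mouse 1 or repeated 2 hr mouse 1, with adjusted p-values of up to 0.842 and 0.98. The fold of Acta2 from 1 to 2 hr (log2FC 1.90) and from 2 to 4 hr (-2.18) came to as little as 1.01 and -1.27 with 1 mouse left out, and each of these calls was lost with 6 of the 16 mice left out singly (adjusted p of up to 0.728 and 0.999), repeated 2 hr mouse 1 and acute 2 hr mouse 1 among them.

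The summed level of the 21 endothelial and mural markers was 665.1 to 978.1 CPM at 2 hr, against 630.1 to 738.3 CPM at 0 hr. By unadjusted p, 4 of its 20 tested members were higher and none lower at 2 hr (2.65% and 3.15% of all genes). Without repeated 2 hr mouse 1 the 2 hr sums were 665.1 to 755.7 CPM, and 3 members were higher. None of the 9 genes called at 1 hr had more than 31.7% of its summed CPM in a single mouse. The 15 meningeal and fibroblast markers summed to 2576 to 5589 CPM at 1 hr and 2649 to 3175 CPM at 0 hr. The high value was that of acute mouse 2, in which Ptgds, an abundant enzyme of the meninges, was at 5361 CPM against 2431 to 3149 CPM in the other 1 hr mice. All 15 had a log2FC above 0 at 1 hr, 4 of them with an unadjusted p under 0.05 (2.54% of all genes were higher), and none was called with both treatments together. Without acute mouse 2 the sums at 1 hr were 2576 to 3288 CPM, 11 of the 15 had a log2FC above 0 and none had an unadjusted p under 0.05, and the log2FC of Ptgds came to 0.002 from 0.24. In acute mice alone Ptgds was called at 1 hr (log2FC 0.51, SE 0.11, adjusted p = 0.028). Of the 9 genes called at 1 hr, 6 were called without acute mouse 2 (Fos, Junb, Sgk1, Plekhf1, Egr1 and Nr4a1). The calls of Nfkbia (0.61, adjusted p = 0.254), Ddit4 (0.57, adjusted p = 0.061) and Fgfr2 (0.58, adjusted p = 0.114) were lost. The part of meningeal tissue in these calls was not tested.

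With both treatments together, no hypothalamic neuropeptide passed edgeR's test against 0 hr at any time. Within single treatments Avp, Oxt, Gal and Hcrt did, as given with those genes. Of 27 tested, 3 were higher and 4 lower by unadjusted p at 1 hr, 1 higher and 6 lower at 2 hr, and none higher and 3 lower at 4 hr. Over all genes the shares higher and lower were 2.54% and 2.34% at 1 hr, 2.65% and 3.15% at 2 hr and 2.44% and 2.76% at 4 hr. Hcrt was at 6517, 5835, 6640 and 7771 CPM at 0 hr, at 6319, 5583, 4997 and 4585 CPM at 2 hr and at 5578, 4151, 4727 and 6665 CPM at 4 hr. The means moved from 6691 ± 802.5 CPM (SD, n = 4) at 0 hr to 5371 ± 753.2 and 5280 ± 1094 CPM, with overlapping mice. The log2FC was -0.31 (adjusted p = 0.6) at 2 hr and -0.34 (adjusted p = 0.449) at 4 hr. With 1 mouse left out the 4 hr value ran from -0.463 to -0.25. Hcrt was called at 4 hr in 1 of these 16 fits, that without repeated 4 hr mouse 2, the highest at 4 hr. Pdyn, the dynorphin precursor that orexin neurons also make, had a log2FC of -0.39 at 2 hr (adjusted p = 0.6), and Pmch one of -0.26 at 4 hr (adjusted p = 0.933). The summed level of 22 LH and hypothalamic neuron markers, which Hcrt and Pmch dominate, was 14830 to 16350 CPM at 0 hr, 12230 to 16910 at 1 hr, 10750 to 15890 at 2 hr and 10440 to 15060 at 4 hr. The part of dissection in these values was not tested.

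Avp and Oxt, the peptides of magnocellular neurons, were highest in acute 1 hr mouse 1. Avp (chr2:130580620-130582554) was at 1496 CPM in this mouse, at 343, 276.2 and 180 CPM in the other 1 hr mice and at 161.8 to 332.4 CPM at 0 hr. Oxt (chr2:130576173-130577054) was at 814.1 CPM in it and at 218.4, 67.9 and 87.9 CPM in the others. The Avp log2FC at 1 hr was 0.97 (adjusted p = 0.521), and -0.002 without this mouse. For Oxt it was 0.84 (adjusted p = 0.938), and -0.37 without this mouse. In acute mice alone both were called at 1 hr, Avp with a log2FC of 1.59 (SE 0.30, adjusted p = 0.00874) and Oxt with one of 1.96 (SE 0.28, adjusted p = 0.000132), values that include this mouse as 1 of 2. After Avp, Pthlh had the smallest unadjusted p of the list at 1 hr (log2FC 0.99, adjusted p = 0.925).

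Other lists had no called gene against 0 hr at any time in edgeR's test of both treatments together, and the shares of all genes beside their counts by unadjusted p are those just given for the neuropeptides. Of 31 neuropeptide and amine receptors, 1 was higher and 1 lower at 1 hr by unadjusted p, 2 higher at 2 hr and 1 lower at 4 hr. The smallest p-values were those of Mchr1, the receptor of melanin-concentrating hormone (log2FC 0.45 at 1 hr and 0.49 at 2 hr, adjusted p = 0.938 and 0.71), Htr1b (0.41 at 2 hr), Avpr1a (-0.62 at 1 hr and -0.57 at 4 hr) and Drd2 (-0.29 at 4 hr). Of 20 clock genes, 1 was higher and 1 lower at 1 hr, 1 lower at 2 hr and none at 4 hr. Per1, which is both a clock gene and a target of CREB and glucocorticoids, had a log2FC of 0.49 at 1 hr (SE 0.12, adjusted p = 0.176), and Rora one of -0.35. Nr1d1 (-0.21 at 2 hr and -0.20 at 4 hr), Dbp (-0.23 at 2 hr) and Bhlhe40 (-0.25 at 4 hr) had the smallest p-values later. Of 30 chaperones, 1 was higher and 3 lower at 1 hr, 1 lower at 2 hr and 2 higher at 4 hr, with Dnajb9 at 0.19 and Calr at -0.12 on the log2 scale at 1 hr. Of 16 hypoxia and glycolysis genes, none had an unadjusted p under 0.05 at any time.

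The response was also taken within each treatment, from 2 mice against 2, to ask whether the first and the fifth dose differed. In the acute mice 13 genes were called at 1 hr (0.101%), 3 at 2 hr (0.0234%) and 4 at 4 hr (0.0312%). In the repeated mice 5 were called at 1 hr (0.039%), 3 at 2 hr (0.0234%) and 1 at 4 hr (0.0078%). Fos was called in both at 1 hr, with log2FC of 1.89 (SE 0.27) in acute and 2.22 (SE 0.32) in repeated mice. Junb was called in both as well (0.77 and 0.97). Sgk1 was called in acute mice (1.45) and had a log2FC of 0.89 in repeated mice (adjusted p = 0.17), whose 0 hr mice were the spread pair. Egr1 and Nr4a1 were called in repeated mice (1.31 and 1.57) and had log2FC of 0.35 and 0.60 in acute mice (adjusted p = 0.88 and 0.881). Calls of a treatment at different times shared its 2 mice of 0 hr. In acute mice Lamtor2 was called at 1, 2 and 4 hr, with nearly equal log2FC (0.79, 0.76 and 0.75). Dnajc7 was called in them at 1 and 2 hr (0.68 and 0.67). In repeated mice Mt3 was called lower at 1 and 2 hr (-0.36 and -0.33).

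The difference itself was tested as an interaction, and none of the 9 genes passed it at 1 hr. The repeated response minus the acute response was 0.33 for Fos (SE 0.44), 0.21 for Junb (SE 0.22), -0.55 for Sgk1 (SE 0.31), 0.96 for Nr4a1 (SE 0.41, adjusted p = 0.643) and 0.96 for Egr1 (SE 0.24, adjusted p = 0.225) on the log2 scale. For Egr1 it was 0.83 at 2 hr and 1.16 at 4 hr (adjusted p = 0.23 and 0.104), each time against 0 hr mice that differed between the treatments. The sign of the Sgk1 difference rested on repeated 0 hr mouse 1, without which it was 0.43. Oxt was the 1 gene called at 1 hr (0.0078%), with a difference of -3.20 (SE 0.42, adjusted p = 3.24e-05). Both repeated 1 hr mice were below all 0 hr mice and both acute 1 hr mice were above the acute 0 hr mice. Without acute 1 hr mouse 1, which left 1 acute mouse at 1 hr, the Oxt difference was -1.96. The Avp difference of -1.62 was not called (adjusted p = 0.307) and ran from -2.321 to -0.196 with 1 mouse left out. The part of dissection in the Oxt and Avp values was not tested.

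At 2 hr 15 genes differed between treatments (0.117%). Gal (chr19:3409915-3414544), the precursor of galanin, was at 114.9 and 124.2 CPM in the repeated 0 hr mice and 63.5 and 70.5 CPM in the repeated 2 hr mice. In acute mice it was at 96.2 and 92.0 CPM and then at 106.3 and 94.4 CPM. It fell in the repeated mice alone by call (log2FC -0.83, SE 0.13, adjusted p = 0.0011), and the difference was -0.92 (SE 0.18, adjusted p = 0.0157). The difference was not called without acute 0 hr mouse 1, acute 2 hr mouse 1, repeated 0 hr mouse 1 or repeated 2 hr mouse 1, with an adjusted p of up to 0.182. Hcrt was likewise called lower in repeated mice at 2 hr (log2FC -0.59, SE 0.10, adjusted p = 0.00317), but its difference from acute mice was not called (-0.54, SE 0.14, adjusted p = 0.145).

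Genes of the ribosome made up most of the other differences at 2 hr. Of 85 Rpl and Rps genes, 10 were called lower (0.117% of all genes were called in either direction), 84 had a difference below 0 (98.8%, against 49.5% of all genes), and the median was -0.30 against 0.004 over all genes. The set was not among the lists examined and was taken up from the calls of this contrast. These counts are therefore not separate support for the calls. Rps29 (-0.52, SE 0.09, adjusted p = 0.00277) was at 1289 and 1296 CPM in acute and 2012 and 1781 CPM in repeated 0 hr mice, and between 1545 and 1622 CPM in all 2 hr mice. The treatments were thus apart at 0 hr and together at 2 hr. Rps27 (-0.51), Nenf (-0.49) and Atp5j2 (-0.42) were also lower and Tubb4a (0.45) higher. The count of 15 rested on single mice. It was 0 without acute 2 hr mouse 1 or repeated 0 hr mouse 1, 4 without acute 0 hr mouse 1, 6 without acute 2 hr mouse 2, 31 without acute 0 hr mouse 2, 51 without repeated 0 hr mouse 2, and 23 and 25 without repeated 4 hr mouse 1 and 2.

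Ttr, transthyretin, the most abundant transcript of the choroid plexus, was at 373.7 and 231.5 CPM in the acute and at 81.9 and 106 CPM in the repeated 0 hr mice. It was called lower in acute mice at 2 hr (-1.36) and 4 hr (-1.24), and its difference was called at 2 hr (1.32, SE 0.25, adjusted p = 0.0113) and as the 1 gene at 4 hr (1.64, SE 0.24, adjusted p = 0.000483, 0.0078%). At 2 hr the call was lost without acute 0 hr mouse 1, acute 2 hr mouse 1, repeated 0 hr mouse 1 or repeated 2 hr mouse 2 (adjusted p of up to 0.196). The 15 choroid plexus markers, Ttr itself among them, summed to 423.4 to 827.3 CPM at 0 hr and 474.7 to 545.5 CPM at 2 hr. Their part in the Ttr values was not tested.

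**Figure D4:**
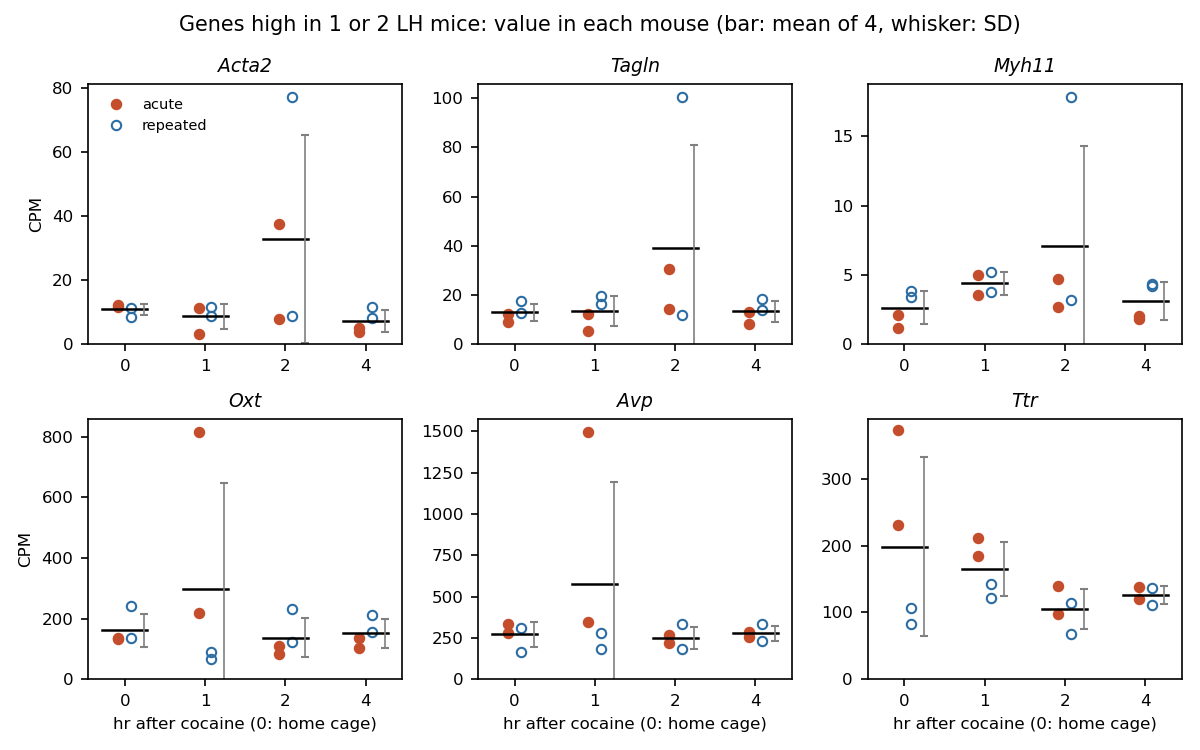
Expression in each LH mouse of 6 genes that were high in 1 or 2 mice, in CPM scaled by TMM (vertical axis), by hr after cocaine (horizontal axis). Filled circles are acute mice, open circles repeated mice, bars the mean of 4 mice and whiskers the SD, cut at 0. A single repeated mouse at 2 hr is highest for Acta2, Tagln and Myh11, a single acute mouse at 1 hr for Oxt and Avp, and the acute 0 hr mice for Ttr.

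The LH response was set against that of the Amy, from 16 libraries of the same run, treatments, times and animal numbers, and that of the DS, from 16 libraries of another run, each against the 0 hr mice of its own structure. By cohort and animal number the 8 repeated DS libraries came from the same 8 mice as the repeated LH libraries, while the acute DS libraries came from other mice than the acute LH libraries. The main comparisons of LH with Amy and of LH with DS each treated their 32 libraries as separate mice. At 1 hr 14 genes were called in the Amy (0.11%) and 56 in the DS (0.457%), against 9 in the LH. The LH minus Amy difference at 1 hr was called for Arc alone (0.00763% of 13103 genes). Its log2FC was 0.07 in LH and 1.40 in Amy, a difference of -1.33 (SE 0.25, adjusted p = 0.0185). This call was lost without acute 0 hr mouse 1, acute 1 hr mouse 2, repeated 0 hr mouse 2 or repeated 1 hr mouse 2 (adjusted p of up to 0.769). At 2 and 4 hr no difference between LH and Amy was called (0% at each), with 715 and 615 genes at an unadjusted p under 0.05 and none called by DESeq2.

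The LH minus DS difference at 1 hr was called for 23 genes (0.176% of 13045). Nr4a3 (-2.42, SE 0.40, adjusted p = 0.000179), Fosl2 (-2.25), Arc (-2.21) and Fosb (-2.07), all induced by neuronal activity, had responses that were smaller in LH. Of the 23, 22 were also tested in LH alone. The other one, Egr2, had 1 to 11 reads per LH library and passed the filter through its DS reads, so its difference is not counted as a result. Among the genes called in LH, Nr4a1 (-1.80, adjusted p = 0.000952) and Junb (-1.47, adjusted p = 3.16e-08) were smaller in LH than in DS. Without acute 0 hr mouse 1 of the LH the count was 13, and the Nr4a1 call was lost (adjusted p = 0.142). In the repeated mice alone, 4 of the 23 were called (Arc, Junb, Slc25a25 and Rgs2), and 6 with the animal as a block (these 4, Nr4a3 and Nr4a1), all 23 with a difference below 0 in both. Fos had log2FC of 2.02 in LH, 1.71 in Amy and 2.999 in DS, and its difference from DS was not called (-0.997, SE 0.36, adjusted p = 0.692). Sgk1 (1.18 in LH, 0.90 in Amy and 0.83 in DS) and Nfkbia (0.69, 0.50 and 0.71) had close values in all 3 structures, with LH minus DS of 0.34 (SE 0.26) and -0.02 (SE 0.25). Plekhf1 had a log2FC of 0.99 in LH, 0.69 in Amy (adjusted p = 0.885) and -0.07 in DS (adjusted p = 0.998), and the difference from DS, 1.05 (SE 0.34), was not called (adjusted p = 0.552). Fgfr2 was at 0.57 in LH, 0.01 in Amy and 0.10 in DS, again without a called difference (0.55 and 0.46). At 2 and 4 hr no LH minus DS difference was called (0% at each), with 783 and 735 genes at an unadjusted p under 0.05, and DESeq2 called 1 and 3.

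Of 54 genes called higher in DS at 1 hr, 53 were tested in LH and 5 were called there, which is 9.43% of the DS set and 55.6% of the LH genes, against 0.0702% of all genes called in LH. In LH 39 of the 53 had a log2FC above 0, against 49.4% of all genes. Their median log2FC was 0.14 in LH and 1.17 in DS. Of 14 genes called higher in Amy, 13 were tested in LH, all 13 had a log2FC above 0 and 6 were called, 46.2% of the Amy set and 66.7% of the LH genes. The median was 0.66 in LH and 0.93 in Amy, against -0.002 over all genes in LH.

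**Figure D5:**
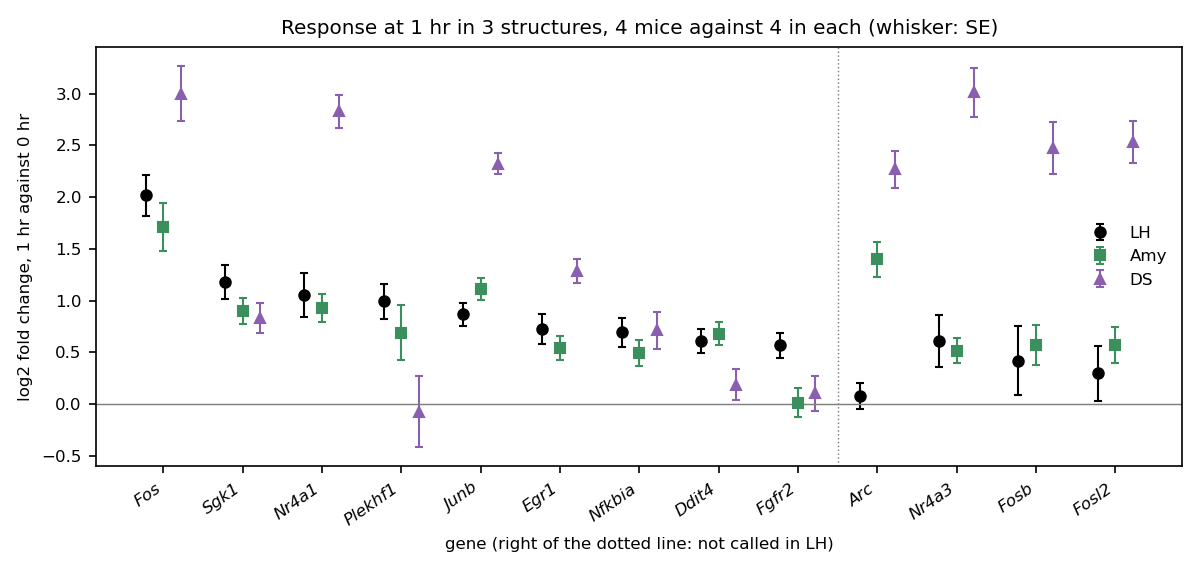
Log2FC at 1 hr against 0 hr (vertical axis) in LH, Amy and DS for the 9 genes called in LH and, right of the dotted line, 4 immediate-early genes that were not (horizontal axis), with whiskers for the SE and 4 mice against 4 in each structure. Arc is at 0.07 in LH, 1.40 in Amy and 2.27 in DS.

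LH libraries of another treatment, a cocaine challenge after 21 days of abstinence, give values in other mice and runs. These 8 libraries came from 7 mice in 2 runs, with both 0 hr libraries from 1 mouse, so no test was made, and values are the 2 libraries of each time on a scale set over all 24 LH libraries. Fos was at 17.4 and 22.7 CPM at 0 hr and at 30.3 and 64.2 CPM at 1 hr. Junb was at 38.6 and 53.3 CPM, then at 66.0 and 73.7 CPM. Sgk1 was at 45.6 and 65.6 CPM at 0 hr, 160.1 and 229.9 CPM at 1 hr, 96.3 and 132.7 CPM at 2 hr and 72.7 and 93.7 CPM at 4 hr. Both 1 hr libraries of these 3 genes were above both 0 hr libraries, a separation found in 17.7% of all 12813 genes tested. It was found in 7 of the 9 genes called at 1 hr, the others being Plekhf1 (13.1 and 13.5 CPM, then 20.6 and 22.0 CPM), Nfkbia (31.3 and 31.7 CPM, then 50.6 and 64.0 CPM), Nr4a1 (23.2 and 24.03 CPM, then 29.8 and 32.0 CPM) and Ddit4 (58.5 and 64.5 CPM, then 65.6 and 102.7 CPM). For Egr1 (58.5 and 69.2 CPM, then 59.5 and 121 CPM) and Fgfr2 (44.8 and 48.8 CPM, then 46.7 and 49.4 CPM) the libraries overlapped. Acta2 was at 3.55 and 11.3 CPM at 2 hr and Oxt at 44.8 and 125.4 CPM at 1 hr in the challenge mice, without a library like those that stood apart in the other treatments.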

How the data were processed

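LH libraries were taken from the series by structure and treatment in the labels, and replicate numbers came from the labels. The deposited values are raw counts per gene (19363 genes, 194 libraries), which the authors made from 3′ RNA-seq libraries of 100 ng RNA from 400 µm slices by alignment to GRCm38 (STAR), collapsing of PCR copies by UMI and counting (HTSeq). Versions and annotation are not given in the sources used here. The study down-sampled very deep libraries and removed very shallow ones. Depth limits precision for genes with few reads, and intervals cover counting error only.

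The 16 libraries entered one fit of treatment plus time by edgeR's quasi-likelihood test (version 4.0.16, R 4.3.3, TMM scaling, filterByExpr by treatment and time) and Benjamini-Hochberg adjustment over all genes tested. SE was the log2FC over the square root of F. Single-mouse values are CPM scaled by TMM. DESeq2 1.42.0 was an alternative. Others were RLE scaling, no filter on low counts, a robust fit, no treatment covariate, a replicate block, thinning to equal depth, a fold over 1.5, each treatment alone and each mouse left out. Comparisons between 1, 2 and 4 hr were added after the data were seen. Scripts were tested on simulated data. The members and gene lists were chosen with earlier results of these data known. Named genes were up to 10 called genes in each direction at each time, called list members, the 2 smallest unadjusted p-values of lists without a call, the 3 largest called differences each way, and called genes with over 50% of a group's CPM in 1 mouse. Arc, Fosb, Nr4a3, Fosl2, Plin4, Tsc22d3, Arrdc2, Fkbp5, Per1 and the genes of the direct comparisons were added with values in view. LH and Amy libraries with 1 cohort and animal number were taken to come from 1 mouse, but the animal was a block in an alternative fit only. Their deviations from group means correlated at 0.01 to 0.068 over 8 pairs. Those of repeated LH and DS libraries correlated at 0 to 0.028 over 4. Paired libraries of a group differed by more than sampling noise. Gene coordinates are from GENCODE M21 (GRCm38) and promoter windows from RefSeq (GRCm38.p6).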

Additional observations from a re-analysis of the deposited data

Results flagged for a closer look

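In groups of 4 mice, the highest or lowest mouse was looked at for a gap to the others above Dixon's critical value. Of 236 groups from 59 genes, 15 (6.36%) held such a mouse, and chance gives about 5%. Values are CPM. Repeated 0 hr mouse 2 was low for Junb (31.79, others 40.12 to 41.39) and Nfkbia (29.25, others 42.82 to 45.26) and high for Oxt (241.2, others 132.4 to 134.2). Without this mouse the 1 hr comparison called 4 genes, the lowest count with any mouse left out. Repeated 0 hr mouse 1 was low for Rora (31.46, others 45.78 to 48.5) and acute 0 hr mouse 1 for Hk2 (2.153, others 4.602 to 4.815). At 1 hr, acute mouse 2 was high for Plekhf1 (35.91, others 26.69 to 28.19) and low for Chac1 (13.43, others 17.7 to 18.29). Acute mouse 1 was high for Avp (1496, others 180 to 343) and low for Egln3 (1.907, others 4.242 to 4.671), and repeated mouse 2 was high for Pmch (8760, others 5894 to 6263). At 2 hr, acute mouse 2 was high for Dusp14 (24.34, others 19.52 to 20.03) and acute mouse 1 for Ldha (471.2, others 423.4 to 431.5). At 4 hr, acute mouse 1 was low for Errfi1 (50.8, others 54.38 to 54.93), and repeated mouse 1 was low for Pmch (4364, others 6580 to 6978) and high for Drd2 (26.42, others 20.44 to 20.93).

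Differences between groups that passed the interaction test are given on the log2 scale. Between repeated and acute mice they were Oxt at 1 hr (-3.199) and Ttr at 4 hr (1.644), and among the 15 at 2 hr the largest were Ttr (1.315) and Tubb4a (0.447), the 2 that were higher, and Gal (-0.922), Rps29 (-0.523) and Rps27 (-0.513) of those that were lower. Between LH and Amy the difference was Arc at 1 hr (-1.332), and between LH and DS 23 genes differed at 1 hr. Of the 22 that were also tested in LH alone, the largest differences were those of Nr4a3 (-2.419) and Fosl2 (-2.246), and those of genes called in LH were Nr4a1 (-1.803) and Junb (-1.469). The fitted value of Egr2 (-3.265) is no measure of an LH response, since the gene had 1 to 11 reads per LH library and passed the filter through DS.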

How the results depend on the processing

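Fos and Junb were called at 1 hr in all 16 fits with 1 mouse left out and all 11 other alternatives, and the 9 genes were higher in every one of these 27 fits. Single genes and contrasts kept direction and call in 2850 of the alternative values, lost the call in 219, gained one in 53 and changed sign in 16.

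Counts of called genes moved by over 1.5 times as follows. At 1 hr (9) they were 3 with DESeq2, 24 without the filter, 4 with the robust fit, 4 without the covariate and 5 in repeated mice. At 2 hr (0) they were 23 without the filter and 3 in acute or repeated mice alone. At 4 hr (1) they were 0 with DESeq2 or the robust fit, 17 without the filter, 2 after thinning, 2 with the 8 libraries of both times and 4 in acute mice. From 1 to 2 hr (5) they were 3 with DESeq2 or the robust fit, 24 without the filter, 1 without the covariate and 2 with the replicate block. From 1 to 4 hr (8) they were 28 without the filter, 3 without the covariate and 5 at a fold over 1.5. From 2 to 4 hr (1) they were 7 without the filter and 0 with DESeq2, the robust fit, no covariate or the block. For any change (12) they were 5 with DESeq2, 58 without the filter, 4 with the robust fit and 3 without the covariate. For repeated minus acute they were 16 (DESeq2), 43 (no filter) and 3 (block) at 1 hr, 69 (DESeq2) and 68 (no filter) at 2 hr, and 23 (DESeq2), 29 (no filter) and 8 (block) at 4 hr. DESeq2 gave no adjusted p for 11 of the single values. For LH minus Amy they were 5 without the filter and 0 with DESeq2 at 1 hr, and 6 and 9 without the filter at 2 and 4 hr. For LH minus DS they were 4 in repeated mice alone and 7 with the animal as a block at 1 hr (23), 8 (no filter) and 1 (DESeq2) at 2 hr, and 1 (RLE), 4 (no filter) and 3 (DESeq2) at 4 hr. Without the filter 17086 genes were tested. The cause of these moves was not tested.

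The replicate numbers did not pair the mice, since deviations of mice with 1 number correlated at -0.053 to 0.062 over 12 pairs and 4 of the 12 were above 0. With the replicate number as a block, 8 genes were called at 1 hr, 1 at 4 hr, 11 for any change and 16 for the 2 hr interaction. Blocking by animal between LH and Amy changed no count. The comparisons of LH and DS in repeated mice were added after the data were seen.

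With each mouse left out in turn, counts ranged from 4 to 11 at 1 hr, 0 to 7 at 2 hr, 1 to 6 at 4 hr, 1 to 9 from 1 to 2 hr, 5 to 13 from 1 to 4 hr, 0 to 6 from 2 to 4 hr and 8 to 19 for any change. They ranged from 1 to 13, 0 to 51 and 1 to 13 for repeated minus acute at 1, 2 and 4 hr, 0 to 1 for LH minus Amy at 1 hr, and 13 to 23, 0 to 2 and 0 to 2 for LH minus DS. The 7 genes at 2 hr without repeated 2 hr mouse 2 were Fos (1.13), Tagln (1.89), Acta2 (1.86), Mgp (0.96), Crip1 (0.68), Atxn7l1 (0.80) and Ttr (-1.03), with log2FC in parentheses. Where 1 mouse of a treatment and time was left, it was assumed to vary like the others.

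Signs changed for Avp at 1 hr (-0.030 in repeated mice, -0.002 to 1.282 with a mouse left out), Pgk1 at 1 hr (-0.123 in acute mice), Arc at 1 hr (-0.023 in acute mice, -0.024 to 0.259), Fkbp5 at 4 hr (-0.206 in acute mice), Plin4 for any change (-1.235 to 1.058, as the time of largest change moved), Egr1 for LH minus Amy (-0.008 to 0.334) and for LH minus DS (0.010 in repeated mice), Nfkbia for LH minus DS (-0.141 to 0.088) and the Sgk1 interaction at 1 hr (-1.074 to 0.431). Genes with few reads, such as Fos at 0 hr, are limited by depth.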
